A study of Mus musculus with 10 samples.

Results

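The collagen and laminin genes of the mouse were examined for histone H3 modifications in Glast+ cells of the retina. They were taken as all protein-coding genes whose symbol is Col, a number, a and a number, or Lam, 1 of the letters a, b and c, and a number. The rule found 55 genes among the 21887 protein-coding genes on the chromosomes in the lists. They were divided into 11 fibrillar collagens, 8 basement membrane collagens (type IV, Col15a1 and Col18a1), 25 other collagens and 11 laminins. The cells came from C57BL/6 mice at postnatal day 28, without treatment or genetic change named in the labels, and the sort by Glast (Slc1a3), a glutamate transporter of Müller glia, is the only purification named. Chromatin immunoprecipitation and sequencing (ChIP-seq) was done for H3K4me3, a mark of active promoters, H3K4me1, a mark of enhancers and promoter flanks, H3K27me3, the Polycomb mark, and H3K9me3, a mark of heterochromatin. Each mark was profiled in 2 experiments, Exp1 and Exp2, with chromatin of 25000 cells per immunoprecipitation, and whether these used separate animals is not stated.

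Collagens are trimers of chains built on repeats that begin with glycine. Fibrillar collagens form the banded fibrils of connective tissue, type IV collagens form the network of basement membranes, and laminins are trimers of an alpha, a beta and a gamma chain that anchor cells to that network. In the retina the end feet of Müller glia rest on the inner limiting membrane, a basement membrane, and the blood vessels have basement membranes of their own. Several fibrillar and associated collagens, types II, IX and XI among them, are components of the vitreous and of cartilage.

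The deposited lists give enriched regions, called islands. Reads are not counted in them, and the sequencing depth is therefore not known. A mark was assigned to a gene where islands of both experiments lay within 1 kb of the same annotated end. The lists held 16761 to 20169 islands of H3K4me3, 37200 to 52342 of H3K4me1, 4105 to 7743 of H3K27me3 and 5621 to 9690 of H3K9me3. H3K4me3 lay at an end of 8 of 9 Müller glia marker genes, 4 of 5 rod, 3 of 7 pericyte, 2 of 8 endothelial, 1 of 4 pigment epithelium, 0 of 4 fibroblast, 0 of 3 astrocyte and 0 of 4 microglia marker genes. Of all protein-coding genes, 58.6% had H3K4me3 at an end, and the pericyte, endothelial and pigment epithelium shares lay below this. Some rod, pericyte, endothelial and pigment epithelium genes thus carried the mark in this preparation. Any part of these cell types in the results below was not tested. Fewer marked cells and less mark per cell cannot be told apart in islands from many cells.

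The members carried H3K4me3 less often than genes at large, carried H3K4me1 somewhat more often, and had no H3K9me3 at their ends. H3K4me3 lay at an end of 22 of 55 members (40.0%), against 58.6% of all protein-coding genes. H3K4me1 lay at 35 members (63.6%), against 54.6%. H3K27me3 lay at 11 members (20.0%), against 23.3%, a share close to the background. H3K9me3 lay at 0 members, against 13.4% of all genes. Without the olfactory and vomeronasal receptor families the background was 62.8% for H3K4me3, 20.2% for H3K27me3 and 9.88% for H3K9me3. In Exp1 and Exp2 alone, H3K4me3 lay at 25 and 26 members (background 59.6% and 60.6%), H3K4me1 at 40 and 35 (66.2% and 56.5%), H3K27me3 at 16 and 15 (29.3% and 27.1%) and H3K9me3 at 1 and 0 (16.7% and 14.8%). Genes are not replicates and members can share an island, so these shares are descriptions without a test.

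Among the 55 members, 18 had H3K4me3 without H3K27me3 (32.7%, background 51.9%), 7 had H3K27me3 without H3K4me3 (12.7%, background 16.6%), 3 had both at the same end (5.45%, background 5.74%), 1 had them at different ends (1.82%, background 0.937%) and 26 had neither (47.3%, background 24.8%). Within the last group, 12 members had H3K4me1 at an end as the only one of H3K4me1, H3K4me3 and H3K27me3. This was 21.8% of members, against 3.82% of all genes. They were Col1a1, Col5a3, Col24a1, Col4a3, Col4a4, Col15a1, Col6a2, Col7a1, Col9a3, Col14a1, Col16a1 and Lama2. Of these, Col4a3 and Col4a4 share 1 island. Several had a further mark at an end in 1 experiment alone. It was H3K4me3 at Col1a1, Col6a2 and Col9a3, and H3K27me3 at Col7a1, Col14a1, Col15a1 and Col16a1. The other 14 had none of the 4 marks at an end by both experiments (25.5%, background 19.5%). In 1 experiment alone, Lama4, Col6a1 and Col9a2 had H3K4me3 at an end. Col28a1 had H3K27me3, and Col1a2, Col12a1 and Col17a1 had H3K4me1.

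**Figure D1:**
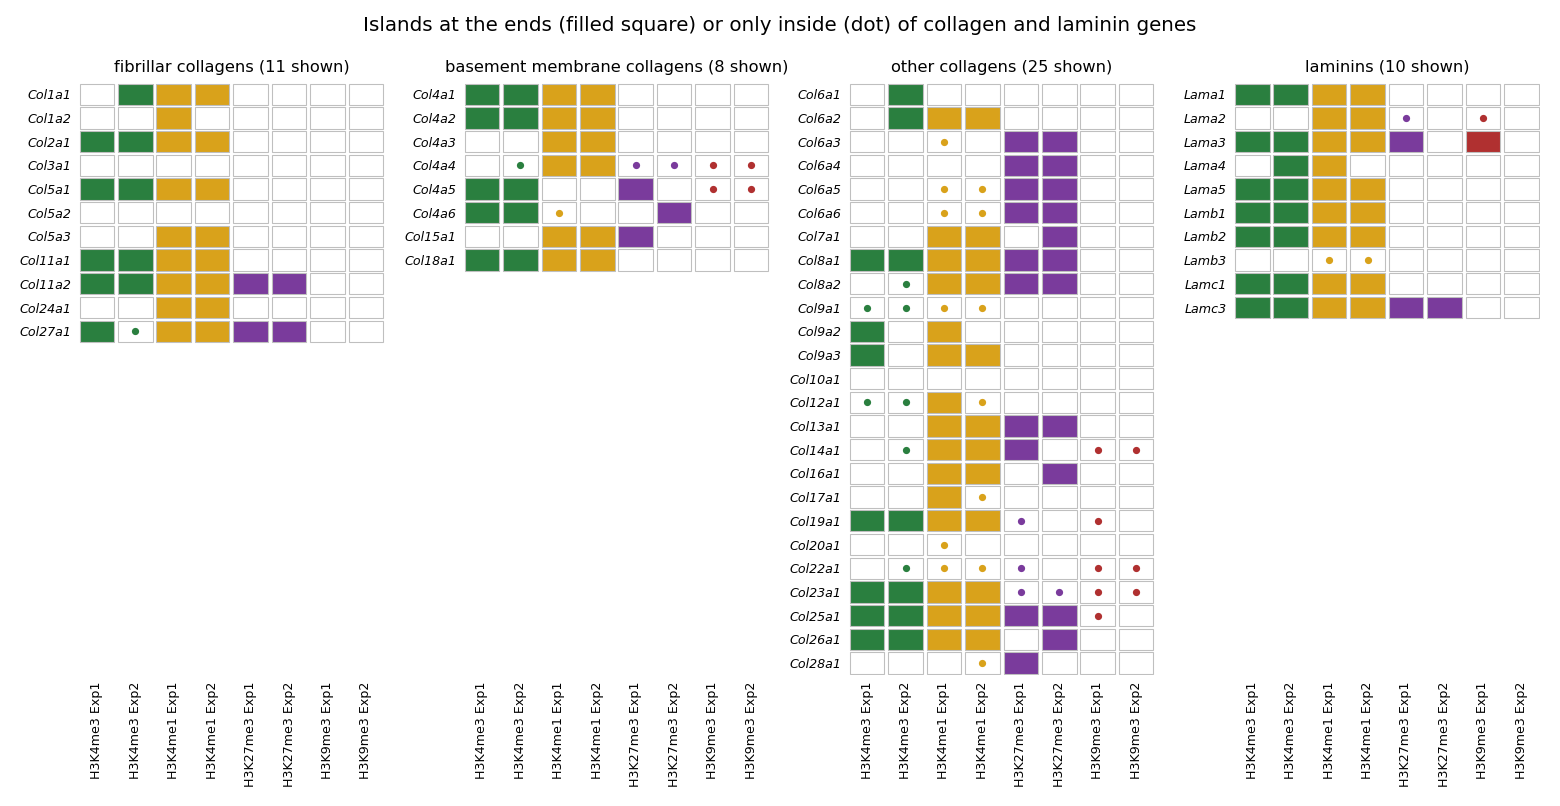
Each row is 1 of 54 members and each column a mark in Exp1 or Exp2. A filled square is an island within 1 kb of a gene end and a dot an island inside the gene alone. H3K4me3 fills both columns for 7 of the 10 laminins drawn and 5 of 25 other collagens, and the H3K9me3 columns hold 1 filled square, Lama3 in Exp1.

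The classes differed in which mark was frequent. H3K4me3 lay at 8 of 11 laminins (72.7%), 5 of 8 basement membrane collagens (62.5%), 4 of 11 fibrillar collagens (36.4%) and 5 of 25 other collagens (20.0%). The first 2 shares lay above and the last 2 below the 58.6% of all genes. H3K27me3 lay at 8 of 25 other collagens (32.0%), 2 of 11 fibrillar collagens (18.2%), 1 of 11 laminins (9.09%) and 0 of 8 basement membrane collagens, against 23.3% of all genes. In Exp1 and Exp2 alone it lay at 2 and 1 basement membrane collagens (25% and 12.5%), at 2 and 1 laminins, at 2 and 2 fibrillar collagens and at 10 and 11 other collagens. H3K4me1 lay at 9 laminins (81.8%), 6 basement membrane collagens (75.0%), 8 fibrillar collagens (72.7%) and 12 other collagens (48.0%), against 54.6%. The order of the H3K4me3 shares rests on single genes in classes this small. Among the 5 basement membrane collagens, Col4a1 and Col4a2 share 1 island, and so do Col4a5 and Col4a6. The island of the latter pair lies outside Col4a6, over the start of Col4a5. Among the 8 laminins, the island of Lamc3 lies outside the gene, beside Aif1l. Inside the gene, H3K4me3 lay in 7 laminins (63.6%) and 4 basement membrane collagens (50.0%), against 62.6% of all genes. With windows of 500 bp, 4 basement membrane collagens (50.0%) had H3K4me3, below the 57.2% of all genes, and 7 laminins (63.6%), above it. Where at least 50% of the window had to be covered, 5 laminins (45.5%) and 3 basement membrane collagens (37.5%) had H3K4me3, below the 53.0% of all genes. The basement membrane collagens came before the laminins with windows of 2.5 kb (75% against 72.7%) and at annotated starts, with 5 of 7 (71.4%) against 3 of 5 (60%). For H3K4me3 the experiments alone gave 8 and 9 laminins, 5 and 5 basement membrane collagens, 5 and 5 fibrillar collagens and 7 and 7 other collagens.

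**Figure D2:**
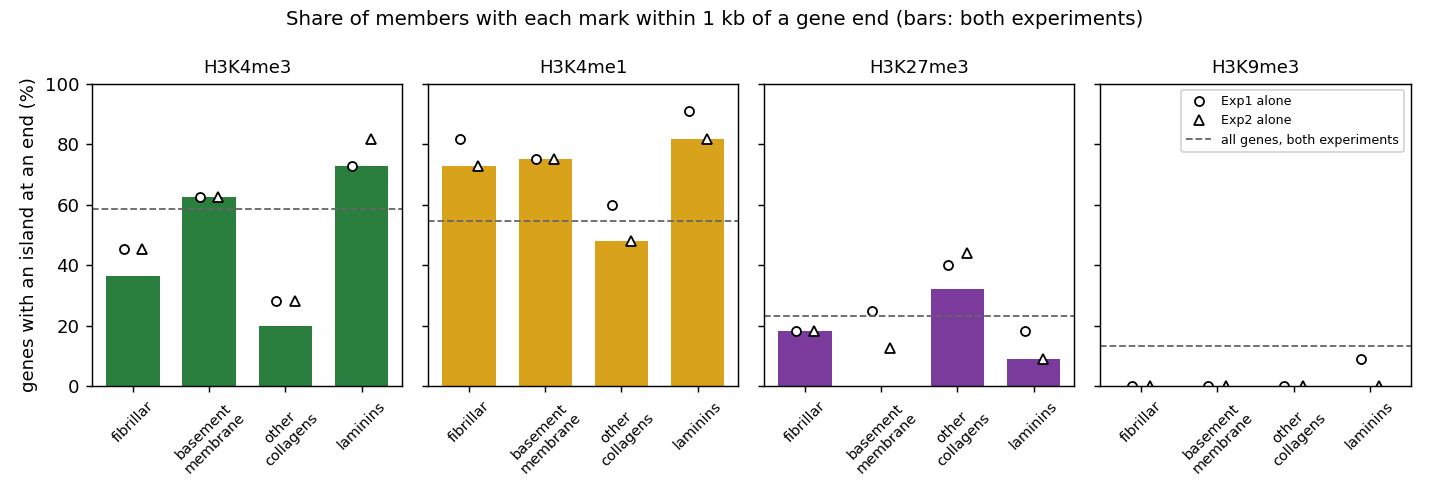
Bars give the percent of each class with an island of the mark at an end in both experiments, circles and triangles the percent in Exp1 and Exp2 alone, and dashed lines the percent of all protein-coding genes. For H3K4me3 the laminins (72.7%) and basement membrane collagens (62.5%) lie above the line at 58.6% and the other collagens (20.0%) below it. The laminins counted include Lamc3 and the basement membrane collagens Col4a6, whose islands lie outside the gene.

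Promoter sequences of 300 bases, from 250 before to 50 after an annotated start, were available for 40 members at 44 starts (RefSeq, GRCm38.p6). Members without an entry included Col1a1, Col2a1, Col4a3, Col5a2, Col9a3, Col12a1, Col14a1, Col22a1, Col26a1, Lama1, Lama3, Lama4, Lamc1 and Lamc3. By an island within 1 kb of the start itself, H3K4me3 lay at 17 of the 40 members (42.5%), against 60.2% of all genes with an entry. H3K4me1 lay at 24 (60%, background 54.4%), H3K27me3 at 9 (22.5%, background 21.6%) and H3K9me3 at 0 (background 12.5%). To show how the starts differ in sequence, the 250 bases before 7 of them follow. They are Lamb1 (chr12:31265043-31265292) and Col4a5 (chrX:141475169-141475418) with H3K4me3, Col25a1 (chr3:130180595-130180844) with H3K4me3 and H3K27me3, Col8a2 (chr4:126286544-126286793) with H3K27me3, the outer (chr1:24177360-24177609) and inner (chr1:24194953-24195202) start of Col9a1, of which the inner one has H3K4me3, and Col3a1 (chr1:45311288-45311537) with no mark. All lie on the plus strand and are written 5′ to 3′. Capitals mark each CpG and, in Col3a1, the motif TATAAA.
Lamb1: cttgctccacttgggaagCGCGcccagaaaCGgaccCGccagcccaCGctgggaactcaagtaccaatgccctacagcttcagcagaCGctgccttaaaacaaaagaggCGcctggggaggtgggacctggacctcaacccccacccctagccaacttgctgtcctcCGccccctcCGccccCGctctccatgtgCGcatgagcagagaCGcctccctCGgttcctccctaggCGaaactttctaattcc
Col4a5: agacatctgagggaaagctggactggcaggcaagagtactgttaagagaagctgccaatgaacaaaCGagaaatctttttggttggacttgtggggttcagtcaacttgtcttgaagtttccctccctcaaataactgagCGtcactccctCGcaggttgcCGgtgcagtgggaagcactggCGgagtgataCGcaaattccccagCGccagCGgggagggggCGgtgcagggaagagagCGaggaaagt
Col25a1: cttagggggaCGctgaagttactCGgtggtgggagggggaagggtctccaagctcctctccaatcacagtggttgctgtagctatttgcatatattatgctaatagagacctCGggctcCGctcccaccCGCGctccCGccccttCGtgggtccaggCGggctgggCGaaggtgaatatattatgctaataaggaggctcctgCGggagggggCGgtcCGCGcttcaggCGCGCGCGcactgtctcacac
Col8a2: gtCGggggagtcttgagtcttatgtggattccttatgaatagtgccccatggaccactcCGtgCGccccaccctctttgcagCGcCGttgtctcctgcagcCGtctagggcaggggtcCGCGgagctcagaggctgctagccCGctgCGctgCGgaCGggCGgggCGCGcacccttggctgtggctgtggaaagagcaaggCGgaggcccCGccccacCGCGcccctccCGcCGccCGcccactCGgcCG
Col9a1 outer start: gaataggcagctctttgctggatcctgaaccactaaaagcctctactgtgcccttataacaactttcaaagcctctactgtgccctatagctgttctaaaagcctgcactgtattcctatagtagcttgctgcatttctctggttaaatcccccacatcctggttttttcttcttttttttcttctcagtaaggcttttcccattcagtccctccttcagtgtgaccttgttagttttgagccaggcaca
Col9a1 inner start: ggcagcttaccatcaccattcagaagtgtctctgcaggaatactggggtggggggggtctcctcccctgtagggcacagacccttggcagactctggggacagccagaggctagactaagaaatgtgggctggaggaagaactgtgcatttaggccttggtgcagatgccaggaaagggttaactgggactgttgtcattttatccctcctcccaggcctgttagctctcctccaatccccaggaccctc
Col3a1: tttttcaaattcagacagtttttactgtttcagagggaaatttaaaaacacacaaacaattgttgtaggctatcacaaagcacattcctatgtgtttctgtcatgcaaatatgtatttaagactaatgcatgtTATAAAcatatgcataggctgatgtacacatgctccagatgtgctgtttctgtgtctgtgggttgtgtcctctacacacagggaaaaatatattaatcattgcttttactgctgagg

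In these stretches the number of CpGs was 14 for Lamb1, 10 for Col4a5, 18 for Col25a1 and 24 for Col8a2, and 0 for both starts of Col9a1 and for Col3a1. The CpG content was then set against the marks for all 44 member starts, as the number of CpGs observed over that given by the C and G content of the 300 bases. The median was 0.607 for 13 starts with H3K4me3 alone, 0.627 for 4 starts with H3K4me3 and H3K27me3, 0.442 for 5 with H3K27me3 alone and 0.303 for 22 with neither. For all promoters of protein-coding genes the medians were 0.784, 0.704, 0.159 and 0.215. Member starts with H3K4me3 alone thus had a lower median than promoters at large in that state. Member starts with neither H3K4me3 nor H3K27me3, some of which had H3K4me1, had a higher one. Single starts went against the order. H3K4me3 lay over the inner start of Col9a1 (0.0431) and over that of Lamb2 (0.276). Col4a6 (0.172) counts as marked, but the H3K4me3 island within 1 kb of its start lies over the start of Col4a5 (0.561). Col5a3 (0.665), Col16a1 (0.587) and Col6a2 at its CpG-richer start (0.557) had neither H3K4me3 nor H3K27me3, and each had H3K4me1. The starts of Col4a1 (0.902) and Col4a2 (0.818) had H3K4me3, and those of Col13a1 (0.837) and Col8a2 (0.832) had H3K27me3.

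**Figure D3:**
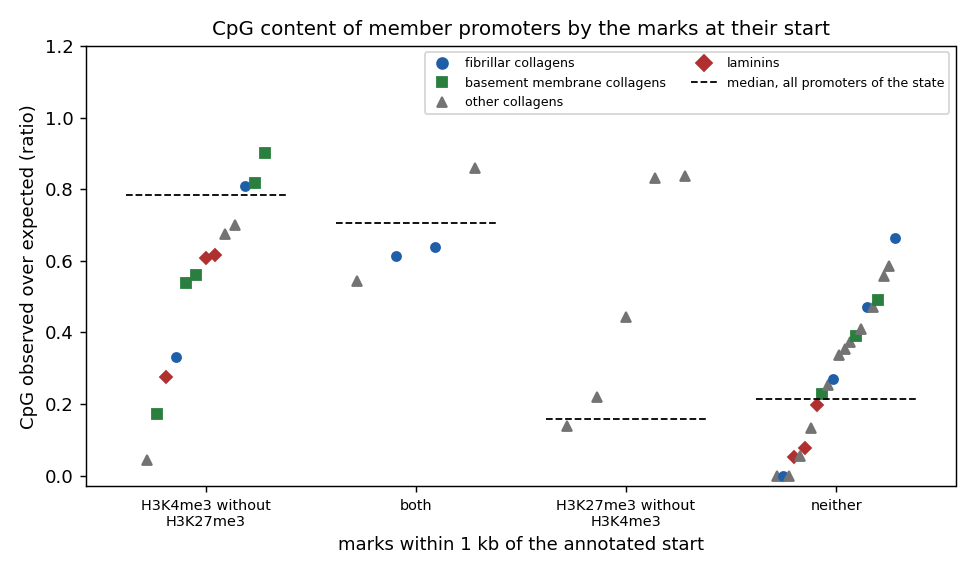
Each point is an annotated start of a member, placed by the marks within 1 kb of it (x axis) and the ratio of observed to expected CpGs in 300 bases (y axis), with symbols for the class. Dashed lines are medians of all protein-coding promoters in that state. The 5 starts with H3K27me3 alone span 0.139 to 0.837, against a median of 0.159 for all such promoters.

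Motifs were searched on both strands of the 300 bases. TATAAA lay in 5 of the 44 member promoters (11.4%), namely Col3a1, Col10a1, Col11a2, Col13a1 and Col17a1, against 12.6% of all promoters. GGGCGG, which holds a CpG of its own, lay in 26 (59.1%), against 46.2%, and CCAAT in 14 (31.8%), against 38.2%. In Col3a1 the TATAAA began 117 bases before the annotated start. These are matches of letters, and the windows of Col4a1 and Col4a2, whose annotated starts are 21 bp apart, overlap.

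All 8 laminins with H3K4me3 at an end also had H3K4me1 at an end. Lamc1, the gamma chain shared by most laminins (chromosome 1, 153218922 to 153332786), carried H3K4me3 over 4.4 kb in Exp1 and over 3.2 kb in Exp2, at its higher-coordinate end. It was wider than that of 61.6% of marked genes, and it was the one member island at an end, away from a neighbouring gene, that passed when only the more significant part of each list, up to its median p-value, was used. H3K4me1 covered 34.9% and 18.8% of the Lamc1 body, in 8 and 7 islands. Lamb1, an early beta chain (chromosome 12, 31265146 to 31329644), carried H3K4me3 over 2.4 and 1.6 kb at its start. Lamb2, the beta chain of mature basement membranes including the inner limiting membrane (chromosome 9, 108479847 to 108490530), had islands of 2.4 and 2.4 kb at its start. At its far end, beside Usp19, Lamb2 had wider ones, of 5.4 and 4.8 kb. Both experiments gave the same picture for these chains, with an island in each.

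The alpha chains, which hold the binding sites for cell receptors, were split. Lama1, the main alpha chain of embryonic basement membranes (chromosome 17, 67697127 to 67822645), carried H3K4me3 over 2.6 and 2.2 kb. Lama5, the chain of many mature epithelial and vessel basement membranes (chromosome 2, 180176373 to 180225904), had this mark over 2.6 and 2.0 kb. It lay at the start of Lama5. Adrm1 reaches within 1 kb of 1 end of Lama5 or the other, and which end was not determined. H3K4me1 at Lama5 was 8.0 and 5.4 kb wide and covered 37.8% and 26.9% of the body. Lama3, an epithelial chain (chromosome 18, 12333417 to 12583013), had narrow H3K4me3 islands of 1.2 and 1.0 kb, and in Exp1 alone H3K27me3 and H3K9me3 over the same end. Lama2, the chain of muscle basement membranes (chromosome 10, 26981285 to 27617191), had no H3K4me3, and H3K4me1 of 2.0 and 1.8 kb at its start. Lama4, the endothelial chain (chromosome 10, 38965515 to 39110188), had H3K4me3 of 2.0 kb in Exp2 and none in Exp1.

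Lamb3, an epithelial beta chain (chromosome 1, 193294353 to 193343878), had no island of any mark at an end, and H3K4me1 inside, over 25% and 8.88% of the body. Lamc3, a gamma chain found in retina and brain (chromosome 2, 31887281 to 31949083), was the one laminin with H3K27me3 in both experiments. Its H3K27me3 islands were 90 and 135 kb wide and covered 36.8% of the body in Exp1 and 100% in Exp2. H3K4me3, of 2.2 and 1.6 kb, lay beyond the opposite end of Lamc3, where Aif1l begins 1.22 kb away, and no H3K4me3 island lay inside the gene. The laminin count of H3K4me3 without it is 7 of 11.

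The type IV collagens lie in head-to-head pairs, and by both experiments each pair had 1 state. Col4a1 (chromosome 8, 11198423 to 11312889) and Col4a2 (chromosome 8, 11312805 to 11449287), the chains of all basement membranes, shared 1 H3K4me3 island, 2.8 kb wide in Exp1 and 2.4 kb wide in Exp2, and 1 H3K4me1 island of 2.0 and 2.8 kb. Inside Col4a2, H3K4me1 covered 29.9% of the body in Exp1 and 7.47% in Exp2, and inside Col4a1 13.2% and 1.3%. Col4a5 (chromosome X, 141475370 to 141689236) and Col4a6 (chromosome X, 141165403 to 141474095), chains of kidney and epithelial basement membranes, shared an H3K4me3 island, 2.6 kb wide in Exp1 and 0.8 kb wide in Exp2. It lay over the start of Col4a5 and within 1 kb of the end of Col4a6, with 0 H3K4me3 islands in the Col4a6 body. In single experiments this pair differed, with H3K27me3 of 60 kb at the far end of Col4a5 in Exp1 and of 55 kb at the far end of Col4a6 in Exp2. Col4a5 and Col4a6 were the only 2 of the 22 members with H3K4me3 that lacked H3K4me1 at an end in both experiments, while 83.3% of all genes with H3K4me3 had H3K4me1. Col4a3 (chromosome 1, 82586921 to 82722059) and Col4a4 (chromosome 1, 82448419 to 82587034), which encode chains of the glomerular basement membrane, had no H3K4me3 at their shared start, and a shared H3K4me1 island of 1.0 and 0.6 kb. The 6 genes thus stand for 3 sites.

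Inside Col4a4, H3K27me3 covered 39.7% and 54.1% of the body and H3K9me3 13.0% and 30.3%. Inside Col4a5, H3K9me3 covered 15.4% and 23.8%. Such inner H3K9me3 in both experiments was found in 5 members (9.09%), the other 3 being Col14a1, Col22a1 and Col23a1, against 16.1% of all genes. The shortest of the 5, Col4a4, is 139 kb long, and a long gene can hold more islands.

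The other 2 basement membrane collagens, which carry heparan or chondroitin sulphate chains, differed. Col18a1, the source of endostatin (chromosome 10, 77052178 to 77166530), had H3K4me3 of 2.6 and 1.8 kb at the outer of its 2 annotated starts. The inner start, 52.8 kb away, had no H3K4me3 or H3K27me3. H3K4me1 covered 41.7% of the Col18a1 body in Exp1 and 8.86% in Exp2, in 10 and 4 islands. Col15a1 (chromosome 4, 47207655 to 47313167) had H3K4me1 of 0.8 and 1.0 kb at its start, no H3K4me3, and H3K27me3 of 15 kb in Exp1 alone.

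**Figure D4:**
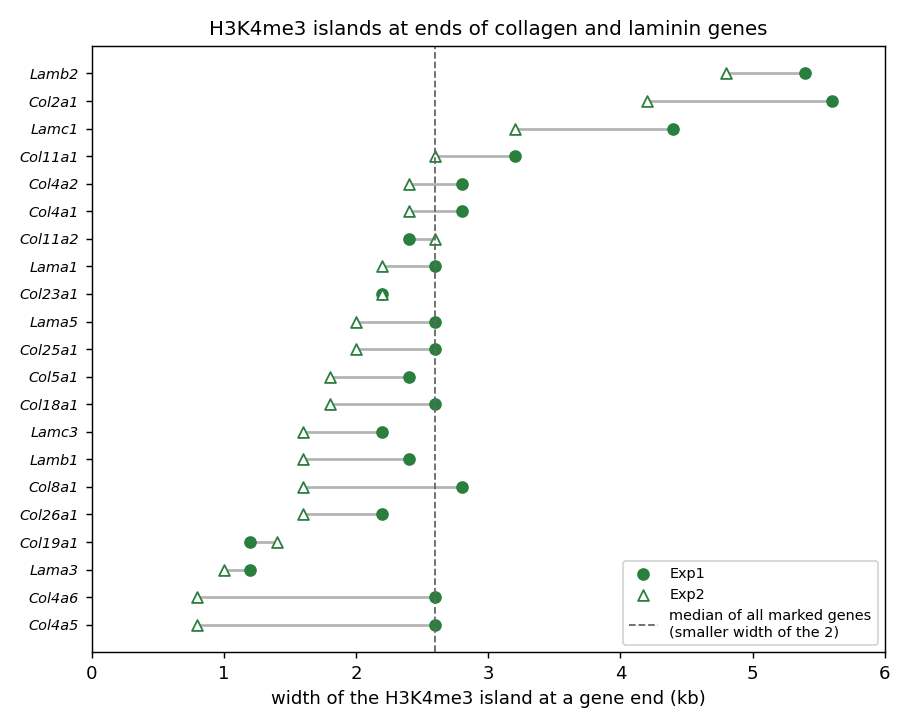
Width of the H3K4me3 island at a gene end in Exp1 (filled circle) and Exp2 (open triangle) for 21 of the 22 marked members, in the order of the smaller width. The dashed line is the median of all marked genes, 2.6 kb. The islands of Lamb2 and Col23a1 shown are those at their far ends, beside Usp19 and Phykpl, and that of Lamc3 lies beside Aif1l.

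The H3K4me3 islands of members were narrow and mostly ranked in the less significant part of their lists. By the smaller width of both experiments their median was 1.9 kb, against 2.6 kb for all marked genes, and 18 of 22 lay below the median of marked genes, with Col11a1 at it. With the islands up to the median p-value of each list, 3 members kept H3K4me3 at an end (5.45%), against 40.7% of all genes. They were Lamc1, and Lamb2 and Col23a1 at the ends beside Usp19 and Phykpl. For H3K4me1 the same restriction left 18 members (32.7%), against 32.3% of all genes, and for H3K27me3 6 members (10.9%), against 18.8%. The p-values are the authors', and they were used only to rank or filter islands within a list.

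Among the fibrillar collagens, the chains of types II and XI and Col5a1 carried H3K4me3 in both experiments, and those of types I and III did not. Col2a1, the chain of type II collagen (chromosome 15, 97975602 to 98004724), had islands of 5.6 and 4.2 kb at its higher-coordinate end, wider than those of 80.9% of marked genes. H3K4me1 covered 60.2% of the Col2a1 body in Exp1 and 27.9% in Exp2. Col11a1 (chromosome 3, 114030479 to 114220756) and Col11a2 (chromosome 17, 34038919 to 34066684) encode chains of type XI collagen, which joins type II fibrils. H3K4me3 was 3.2 and 2.6 kb wide at Col11a1, and 2.4 and 2.6 kb at Col11a2. Col5a1, a chain that limits fibril width (chromosome 2, 27886381 to 28039510), had islands of 2.4 and 1.8 kb. Each of these 4 had H3K4me1 at the same end.

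Col11a2 was also covered by H3K27me3 over 100% of its body, in islands of 110 and 295 kb that extend to neighbouring genes such as Rxrb. The authors' p-value of the Exp1 island is 0.181, and with islands at or below 0.05 Col11a2 had H3K4me3 alone. Col27a1, a fibrillar collagen of cartilage (chromosome 4, 63214009 to 63334991), had H3K27me3 of 105 and 105 kb over its start. H3K4me3 lay within 1 kb of the gene end in Exp1, at 2.6 kb, and further inside in Exp2, at 1.2 kb, over the annotated start at 63215412. By that start, rather than by the gene end, Col27a1 had both marks.

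Col1a1 (chromosome 11, 94936224 to 94953042) and Col1a2 (chromosome 6, 4505618 to 4541543) encode type I collagen, the main protein of skin and bone. Col1a1 had H3K4me3 of 1.4 kb in Exp2 and none in Exp1, and H3K4me1 of 7.6 and 2.4 kb. Col1a2 had H3K4me1 at its start in Exp1 and no other island at an end. Col3a1 (chromosome 1, 45311538 to 45349706) and Col5a2 (chromosome 1, 45374331 to 45503282), neighbours 24.6 kb apart, had no island of any mark at an end or in the body in either experiment. Only 1 other member, Col10a1 of hypertrophic cartilage (chromosome 10, 34389981 to 34397085), was as empty. Of 4 marker genes of fibroblasts, the cells known for these collagens, Dcn and Lum had none of the 4 marks at an end, Fbln1 had H3K4me1, and Pdgfra had H3K27me3 of 95 and 100 kb. Col5a3 and Col24a1 had H3K4me1 alone, of 13.2 and 4.0 kb and of 1.4 and 1.6 kb.

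The type IX collagens, which coat type II fibrils, gave 1 case that gene ends miss. Col9a1 (chromosome 1, 24177589 to 24252738) had no mark at either end. Its annotated starts lie 17.6 kb apart, the inner one known to open a shorter transcript. Over the inner start lay H3K4me3 islands, 5.6 kb wide in Exp1 and 4.6 kb wide in Exp2, and 0 over the outer start. Those of Col2a1 were 5.6 and 4.2 kb. H3K4me1 covered 37.5% of the Col9a1 body in Exp1 and 1.33% in Exp2. Col9a2 (chromosome 4, 121039566 to 121055325) and Col9a3 (chromosome 2, 180598102 to 180622192) had H3K4me3 in Exp1 alone, of 3.2 and 1.2 kb. Col9a3 had H3K4me1 of 7.8 and 5.8 kb at its lower-coordinate end. Tcfl5 reaches within 1 kb of an end of Col9a3, and whether this is the marked end was not determined.

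**Figure D5:**
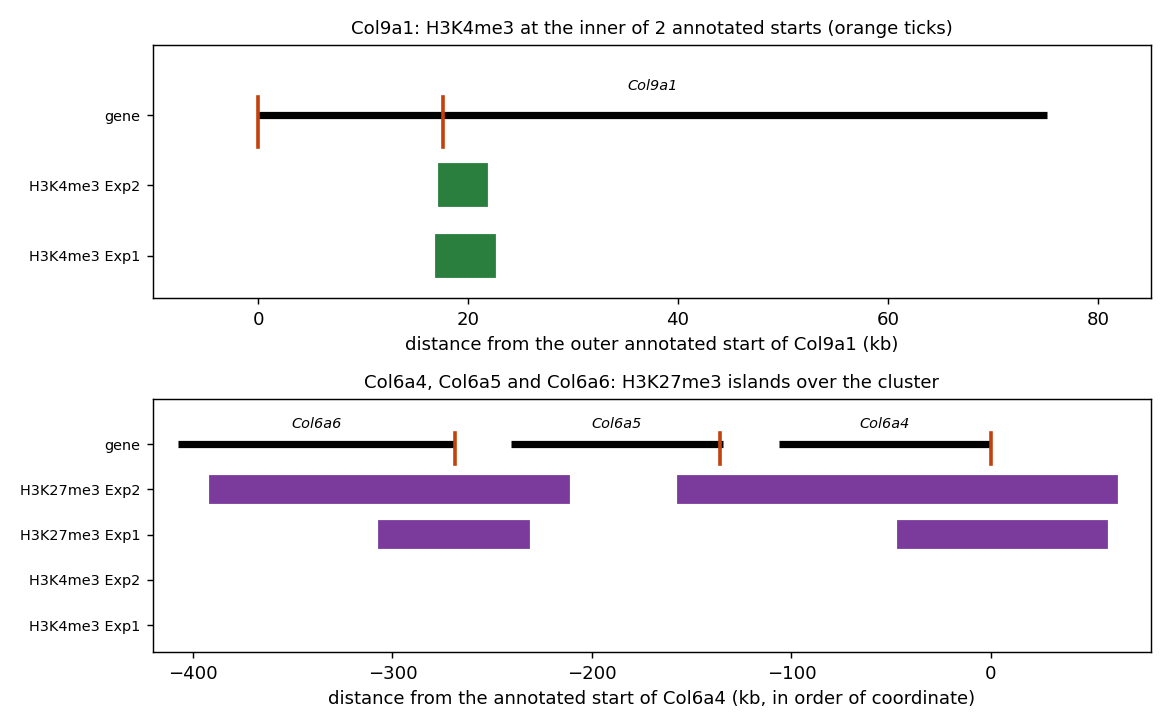
Islands (bars) along Col9a1 and along the Col6a4, Col6a5 and Col6a6 cluster, by distance in kb from an annotated start, with genes as black lines and annotated starts as orange ticks. H3K4me3 lies over the inner start of Col9a1 in both experiments, and H3K27me3 lies over parts of the type VI cluster with 0 H3K4me3 islands.

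Of the 11 members with H3K27me3, 6 were type VI and type VIII collagens. Type VI collagens form beaded filaments. Col6a3 (chromosome 1, 90766860 to 90844001) had H3K27me3 of 120 and 130 kb over its start, covering 44.1% and 57.0% of the body. Col6a4 (chromosome 9, 105990318 to 106096828), Col6a5 (chromosome 9, 105856070 to 105962463) and Col6a6 (chromosome 9, 105689417 to 105828246) stand in a row. Islands of 75 and 180 kb lay over the start of Col6a6 and the far end of Col6a5, and islands of 105 and 220 kb over the start of Col6a4. These 3 genes thus rest on 2 islands per experiment. At Col6a5 the annotated start itself was covered in Exp2 alone. With the islands up to the median p-value the 3 had no H3K27me3 at an end. Col6a1 (chromosome 10, 76708792 to 76726044) and Col6a2 (chromosome 10, 76595756 to 76623630), the chains found with Col6a3 in most tissues, had no H3K27me3, and H3K4me3 at the start in Exp2 alone, of 1.6 and 0.8 kb.

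Type VIII collagens form the hexagonal lattice under the corneal and vascular endothelium. Col8a1 (chromosome 16, 57624256 to 57754737) had H3K27me3 of 170 and 160 kb, the widest among members by the smaller experiment, and H3K4me3 of 2.8 and 1.6 kb at the same end. Col8a2 (chromosome 4, 126286794 to 126314330) had H3K27me3 of 30 and 30 kb over 84.3% of its body in both experiments, with H3K4me1 of 3.0 and 3.8 kb at its start and no H3K4me3 there. Col25a1, a transmembrane collagen of neurons (chromosome 3, 130180358 to 130599884), had H3K27me3 of 95 and 95 kb with H3K4me3 of 2.6 and 2.0 kb at the same start. At Col13a1, a transmembrane collagen of adhesion sites (chromosome 10, 61838234 to 61979206), H3K27me3 was 5 kb wide in Exp1 and 80 kb in Exp2. By the smaller width of both experiments, H3K27me3 was narrower at all 11 marked members than the median of marked genes, 210 kb, and the median of the members was 95.0 kb. In Exp2 alone, the islands at Col11a2 and Col6a4 were wider than 210 kb.

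Other collagens with H3K4me3 without H3K27me3 at an end by both experiments were Col19a1, Col23a1 and Col26a1. H3K27me3 of 50 kb lay inside Col23a1 in both experiments. In 1 experiment alone it lay inside Col19a1 (45 kb, Exp1) and at the lower-coordinate end of Col26a1 (100 kb, Exp2). Col19a1, a fibril-associated collagen of interneurons and muscle (chromosome 1, 24257683 to 24587922), had islands of 1.2 and 1.4 kb at its start, and a second site inside the gene of 1.6 and 1.0 kb. Col23a1, a transmembrane collagen (chromosome 11, 51289679 to 51583925), had islands of 2.8 and 2.0 kb at its start. It also held the most H3K4me1 islands of any member, 23 in Exp1 and 13 in Exp2, over 33.0% and 11.4% of the body. Col26a1 (chromosome 5, 136741759 to 136883376) had H3K4me3 of 2.2 and 1.6 kb. Col12a1, a fibril-associated collagen (chromosome 9, 79598987 to 79721141), had H3K4me3 of 2.8 and 2.4 kb inside the gene in both experiments and none at an end. Col17a1, Col20a1, Col22a1 and Col28a1 had none of the 4 marks at an end in both experiments. In Exp1 alone, Col28a1 had H3K27me3 of 95 kb at its start and Col17a1 had H3K4me1 at its far end. Col7a1, of anchoring fibrils, Col14a1 and Col16a1 had H3K4me1 alone in both experiments, and each had H3K27me3 at an end in 1 of them.

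Over the whole gene, islands covered on average a smaller part of members than of all genes, though more members held an H3K4me1 island. An island of H3K4me3 lay anywhere in the body in both experiments in 23 members (41.8%, background 62.6%). The counts were 42 for H3K4me1 (76.4%, background 61%), 13 for H3K27me3 (23.6%, background 24.2%) and 5 for H3K9me3 (9.09%, background 16.1%). The members are long, with a median of 114 kb against 17.2 kb for all genes. An island of fixed width covers less of a long gene, and a long gene can hold more islands. No comparison at matched length was made. The median body was covered by H3K4me1 over 4.32% ± 2.33 (SD, n = 2), against 9.89% ± 5.79 for all genes. As means, H3K27me3 covered 12.3% ± 3.94 of member bodies and 24.1% ± 0.905 of all genes, and H3K9me3 1.47% ± 0.433 against 14.2% ± 1.21. In the other collagens the mean H3K27me3 coverage was 12.7% in Exp1 and 22.3% in Exp2. H3K27me3 covered at least 50% of the body in both experiments in 2 members (3.64%), Col11a2 and Col8a2, against 19.8% of all genes, and H3K9me3 in 0, against 11.8%.

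H3K4me3 islands inside members, over 1 kb from either end, differed between the experiments. Exp1 had 4, in Col9a1, Col19a1, Col2a1 and Col12a1, and all were found again in Exp2. Exp2 had 14, of which 9 were absent from Exp1. Of these 9, 5 lay within H3K9me3 islands of the same experiment, in Col4a4, Col4a5, Col14a1, Col22a1 and Col23a1, against 0 of the 5 found in both. Over the whole genome, 59.3% of the 3908 H3K4me3 islands in Exp2 alone overlapped H3K9me3, against 6.85% of the 16261 found in both. For H3K4me3 islands in Exp1 alone it was 60.5% of 744, against 7.85% of 16017. The overlap was not particular to H3K9me3. With H3K27me3 it was 56.3% against 16.4% in Exp2 and 62.1% against 17.2% in Exp1. Of the 9 member islands in Exp2 alone, 3 overlapped H3K27me3, against 1 of the 5 found in both. Islands of Exp2 alone were not counted above as a mark of a gene.

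Among 41 genes that act with collagens and laminins, H3K4me3 lay at 31 (75.6%, background 58.6%), H3K4me1 at 36 (87.8%, background 54.6%), H3K27me3 at 6 (14.6%, background 23.3%) and H3K9me3 at 2 (4.88%, background 13.4%). Among the 55 members the shares were 40%, 63.6%, 20% and 0%. Of the other basement membrane components, Nid2, which encodes a nidogen, Hspg2, which encodes perlecan, and Agrn, which encodes agrin, had H3K4me3 without H3K27me3, in islands of 1.6 and 1.6 kb, 1.2 and 1.2 kb, and 3.2 and 2.2 kb. Nid1, which encodes the nidogen that links laminin to type IV collagen, had H3K27me3 of 55 and 55 kb without H3K4me3. Of 11 receptor genes 9 had H3K4me3 (81.8%, background 58.6%), including Itgb1 (3.4 and 3.2 kb), Itga6 (3.6 and 2.4 kb) and Dag1, which encodes dystroglycan (4.6 and 4.2 kb). Ddr2, a receptor for fibrillar collagen, had H3K27me3 without H3K4me3, while Ddr1 had H3K4me3 of 10 and 8.6 kb. Of 20 genes of collagen synthesis 15 had H3K4me3 (75%), including Serpinh1, the collagen chaperone, and the prolyl hydroxylase genes P4ha1 and P4hb. Lox, Loxl3 and Adamts2 had H3K4me3 and H3K27me3 at the same end. Of 6 genes of matrix turnover 4 had H3K4me3 (66.7%), among them Mmp14 and Timp3.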

How the data were processed

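ChIP-seq of 4 histone marks was done in 2 experiments on Glast+ retinal cells, and the 2 input libraries were not analysed here. Per the submitters' processing notes, SICER, bedtools 2.17, SAMtools 1.3.1, BWA 0.7.5a and FastQC were used, with the build mm10. How they were set is not given in the sources used here. The deposited files list islands, each with the authors' p-value, which no source describes as raw or adjusted. The islands are listed per library, on a grid of 200 bp for H3K4me3 and H3K4me1, 3000 bp for H3K9me3 and 5000 bp for H3K27me3, so the repressive marks have coarser ends and wider islands. Without counts of reads the depth of a library cannot be given.

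Gene positions and promoter sequences came from RefSeq tables of GRCm38.p6, whose chromosomes are numbered as in mm10. Of 21900 protein-coding genes, 21887 lay on the listed chromosomes. A gene was marked when an island overlapped the window of 1 kb either side of the same gene end by at least 1 bp in both experiments. Island overlaps were computed with Python 3.11.15 and numpy 2.4.6 and checked on simulated data. Start and far end are named where the promoter table gives the strand, and otherwise the lower or higher coordinate. Widths are of the widest island at an end. No test was run, since the series has 2 libraries per mark and 1 cell population. The rule for named genes allowed every member. It asked for values of the type IV pairs, other well-known chains, up to 3 further members of each state per class, the 3 widest islands of each mark and the 3 members with the most H3K4me1 islands. The values of the other members were added after they were seen, to account for each. The 41 partner genes came from a list. The values of 1 member are not reported here, and it is included in the counts. The members and lists were chosen with earlier results of these data known. Alternatives were each experiment alone, either experiment, windows of 500 bp and 2.5 kb, 50% of the window covered, islands of lower p-value, genes with no other gene within 5 kb, and annotated starts.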

Additional observations from a re-analysis of the deposited data

How the results depend on the processing

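No paired analysis was possible because the results are counts and coverage without a test. With 1 experiment alone, members with H3K9me3 numbered 0 to 1, members with H3K4me3 and H3K27me3 at 1 end 4 to 5 (3 in both), and H3K27me3 lay at 1 to 2 basement membrane collagens (0 in both) and at 1 to 2 laminins. The state of 47 of 55 members was the same in Exp1 alone as in both, and of 46 in Exp2 alone. With a mark in either experiment, H3K27me3 lay at 20 members (36.4%, against 33.0% of all genes), 3 basement membrane collagens, 13 other collagens and 2 laminins, H3K9me3 at 1 member (against 18.2%), H3K4me3 at 9 other collagens (36%, against 61.5%), and both marks at 6 members (10.9%, against 10.8%). With the islands up to the median p-value of each list, H3K4me3 lay at 3 members, 0 fibrillar, 0 basement membrane and 1 other collagen and 2 laminins. H3K4me1 lay at 18 members, and its median body coverage was 1.41%. H3K27me3 lay at 6 members, 1 fibrillar and 4 other collagens, and both marks at 0. There 32 of 55 members had the same state. The laminins came first for H3K4me3, with 2 of 11 (18.2%), but lay below the 40.7% of all genes. Of these 2, Lamb2 had its island at the far end, beside Usp19. With 50% of the window covered, H3K4me3 lay at 3 basement membrane collagens, 3 other collagens and 5 laminins, so the shares of the laminins (45.5%) and basement membrane collagens (37.5%) lay below the 53.0% of all genes. Windows of 2.5 kb gave H3K27me3 at 2 laminins (18.2%, against 23.9% of all genes). They gave H3K4me3 at 75% of basement membrane collagens and 72.7% of laminins, against 60.9%. Windows of 500 bp gave H3K4me3 at 50.0% of basement membrane collagens, below the 57.2% of all genes. Among the 28 members with no other gene within 5 kb, H3K4me3 lay at 8 (28.6%, against 45.7% of all such genes). H3K4me1 lay at 17 (60.7%, against 40.4%) and H3K27me3 at 7 (25%, against 32.2%). H3K4me3 lay at 0 of 1 basement membrane, 3 of 14 other collagens (21.4%) and 2 of 4 laminins (50%), against the same 45.7%. H3K27me3 lay at 1 of 9 fibrillar collagens (11.1%) and 0 of 4 laminins, against the same 32.2%. H3K4me1 was the only one of the 3 marks at 7 (25%, against 2.61% of all such genes). At annotated starts, H3K4me3 lay at 3 of 5 laminins (60%) and 5 of 7 basement membrane collagens (71.4%), against 60.2% of all genes. There H3K27me3 lay at 0 of 5 laminins, against 21.6%. With islands at or below 0.05, chosen after seeing the data, H3K27me3 lay at 1 fibrillar collagen. For genes without neighbours and for annotated starts fewer genes were counted, and for the other settings the cause was not tested. Members with H3K4me1 alone, a count added after seeing the data, numbered 8 to 14 over the alternatives that keep all 55 members, against 3.37% to 8.64% of all genes. Without read counts, an absent island cannot be told from one below detection.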
